A study of Mus musculus with 16 samples.

Results

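The amino acid transporter families are described here in sorted epithelium of the mouse distal colon. The members are the 64 gene symbols of 7 solute carrier families (SLC1, SLC3, SLC6, SLC7, SLC36, SLC38 and SLC43), out of 22396 gene symbols measured. They were taken by name and not by any measured value, though earlier results of these data were known when the families were chosen. EpCAM+ cells of 16 mice were sorted, and 1 polyA library was made from every mouse. Of these mice, 4 were Tnfr2-f/f controls given water, 5 were Vil1::Cre;Tnfr2-f/f mice given water, 3 were Tnfr2-f/f controls given dextran sulfate sodium (DSS) and 4 were Vil1::Cre;Tnfr2-f/f mice given DSS. Every mouse carried the floxed allele of *Tnfrsf1b*, the gene of the tumor necrosis factor receptor TNFR2, and Cre driven by the villin promoter acts in intestinal epithelial cells. The labels give 3% DSS for 6 days and tissue taken on day 12 in every group, while the paper's methods name a somewhat higher concentration and take uninjured mice at the start. The mice were young adults.

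Amino acids do not cross membranes unaided, and each of these families moves its own range of them with its own driving force. The SLC1, SLC6 and SLC38 members are largely sodium-coupled and can concentrate their substrates in the cell. The SLC7 light chains are exchangers that reach the plasma membrane bound to a heavy chain, *Slc3a2* or *Slc3a1*, while the cationic branch of SLC7 works alone. SLC36 members are driven by protons, and SLC43 members facilitate diffusion. In the colon, such transporters feed an epithelium that renews itself continuously, and the cystine carried by 1 of the exchangers is used for glutathione.

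Values are in TPM, a length-corrected relative abundance, summed over the listed transcripts of a gene. The tables of the treatments had been scaled separately, and over all genes tested the median difference between DSS and water was 0.32 in controls and 0.30 in Vil1::Cre;Tnfr2-f/f mice on the log2 scale. One median-of-ratios rescaling over all 16 mice brought these medians to 0.01 and -0.01, and "rescaled TPM" means these values. No cage held both treatments. All 7 DSS-treated mice were female, while 2 of the 4 controls and 2 of the 5 Vil1::Cre;Tnfr2-f/f mice on water were male. Treatment, cage and table therefore cannot be told apart, sex is partly tied to treatment, and no test was run between treatments. *Tnfrsf1b* itself did not mark the genotype, with 9.80 to 16.5 rescaled TPM in the water-treated Vil1::Cre;Tnfr2-f/f mice against 12.2 to 17.1 in their controls, and 11.4 to 22.5 against 10.7 to 19.3 after DSS. For mice of this genotype, the paper reports less TNFR2 on EpCAM+ cells by flow cytometry and its loss by qPCR of sorted EpCAM+ cells. The summed TPM of a transcript does not show whether the floxed exon was read. The genotypes are therefore called by their labels, f/f for the Tnfr2-f/f controls and Cre for the Vil1::Cre;Tnfr2-f/f mice (labelled knockout).

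The sort was checked against marker genes. The summed level of 8 epithelial markers was 5156 to 7105 rescaled TPM in water and 4063 to 6109 after DSS, with overlap. *Epcam* (0.23, SE 0.07, and 0.23, SE 0.04, on the log2 scale in f/f and Cre mice) and *Cdh1* were higher after DSS. The others of the 8 were lower in both genotypes, most of all *Krt8* (-0.58, SE 0.27, and -0.65, SE 0.12). Transcripts of other cells moved with treatment too: the summed level of 6 pan-leukocyte markers was 194 to 554 rescaled TPM in water and 12.6 to 51.3 after DSS, and all 6 were lower after DSS in both genotypes. The summed level of 9 B and plasma cell markers was 2833 to 161470 in water against 61.1 to 3383 after DSS. Of the macrophage and neutrophil list, the summed level of 6 macrophage markers was 1029.6 to 2384 in water and 13.8 to 45.5 after DSS, and that of the neutrophil genes *S100a8* and *S100a9* was 1.62 to 13.3 in water and 35.7 to 1601 after DSS. None of these markers was listed at 0 in every DSS-treated mouse, while *Cd8a* and *Nkg7* of the T and NK cell list were. Their part in any difference between treatments given here was not tested. In bulk RNA, fewer cells of a type and less RNA per cell cannot be told apart.

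The promoter sequence that bears most directly on these families is that of *Slc7a11*, since the response element bound by ATF4 under amino acid shortage (written CARE, TGATGNAA on either strand) is a short fixed motif. RefSeq promoter windows (GRCm38.p6, 250 bases before the start and 50 after) were found for 46 of the 64 members, with 67 windows in all. CARE was present in 3.97% of all 32851 windows and in 5 of the 67 member windows (7.46%), which belonged to *Slc1a4*, *Slc6a21*, *Slc7a11* and *Slc7a7*. The *Slc7a11* window held it at 2 places, 66 and 47 bases before the start, in opposite orientations. A *Slc7a7* window also held it at 2 places, 141 bases and 1 base before the start, and only the stretch around the first is shown. Capitals mark CARE, and each sequence is written 5′ to 3′ on the gene's own strand, which is the minus strand for both.
Slc7a11, chr3:50443633-50443699: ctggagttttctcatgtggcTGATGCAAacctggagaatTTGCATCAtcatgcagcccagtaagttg
Slc7a7, chr14:54418058-54418105: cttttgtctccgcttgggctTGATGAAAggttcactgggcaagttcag
The core of the antioxidant response element, TGACNNNGC on either strand, was present in 12.4% of all windows and in 11 of the 67 member windows (16.4%), among them windows of *Slc7a1*, *Slc7a6*, *Slc36a1* and *Slc38a2*. These matches are descriptions of letters and do not show binding.

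Of the 64 members, 30 had a mean of at least 1 rescaled TPM over the 16 mice and were compared (46.9%, where 50.1% of all genes reached it). The other 34 stayed below, 6 of them listed at 0 in every mouse, and 5 of the 34 reached 1 in any mouse, with a highest single value of 2.18 for *Slc43a1*. *Slc6a19*, the main neutral amino acid carrier of the small intestine, was among those below, with no mouse above 0.624 rescaled TPM. The summed level of all members had medians of 484 rescaled TPM in both water-treated groups, 403 in the f/f mice given DSS and 412 in the Cre mice given DSS. Each mouse devoted between 0.0477% and 0.0974% of its listed TPM to these genes.

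*Slc6a14* (chrX:21714896-21742355, plus strand, GRCm38), a sodium- and chloride-coupled carrier of neutral and cationic amino acids, stood first in all 4 groups and made up 24.2% to 27.2% of the members' summed level. Its values were 126, 117, 157 and 118 rescaled TPM in the f/f mice on water, 100.1, 89.6, 132, 130.3 and 129 in the Cre mice on water, 123, 109 and 103 in the f/f mice given DSS and 112, 103, 118 and 103 in the Cre mice given DSS. In each group its lowest mouse lay above the highest mouse of the gene placed second. *Slc38a2*, which carries small neutral amino acids and is known to be induced when they are scarce, was placed second in 3 groups and came after *Slc3a2* in the Cre mice on water. It had 60.8, 85.0, 71.2 and 68.2 rescaled TPM in the f/f mice on water and 53.7, 44.5, 53.6, 69.2 and 72.9 in the Cre mice on water. After DSS it had 75.3, 76.4 and 69.9 in the f/f mice and 96.2, 74.8, 93.1 and 77.7 in the Cre mice. Below these, *Slc6a8* (creatine), *Slc6a6* (taurine), *Slc7a7* (basolateral exchange of cationic for neutral amino acids) and *Slc1a5* (glutamine) followed at group means of 15.3 to 45.1 rescaled TPM, and most neighbours in that order overlapped between mice. *Slc7a6os* is matched by its name alone: it is an opposite-strand neighbour of *Slc7a6* and not itself a transporter, and lay at 17.3 to 30.99 rescaled TPM.

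**Figure D1:**
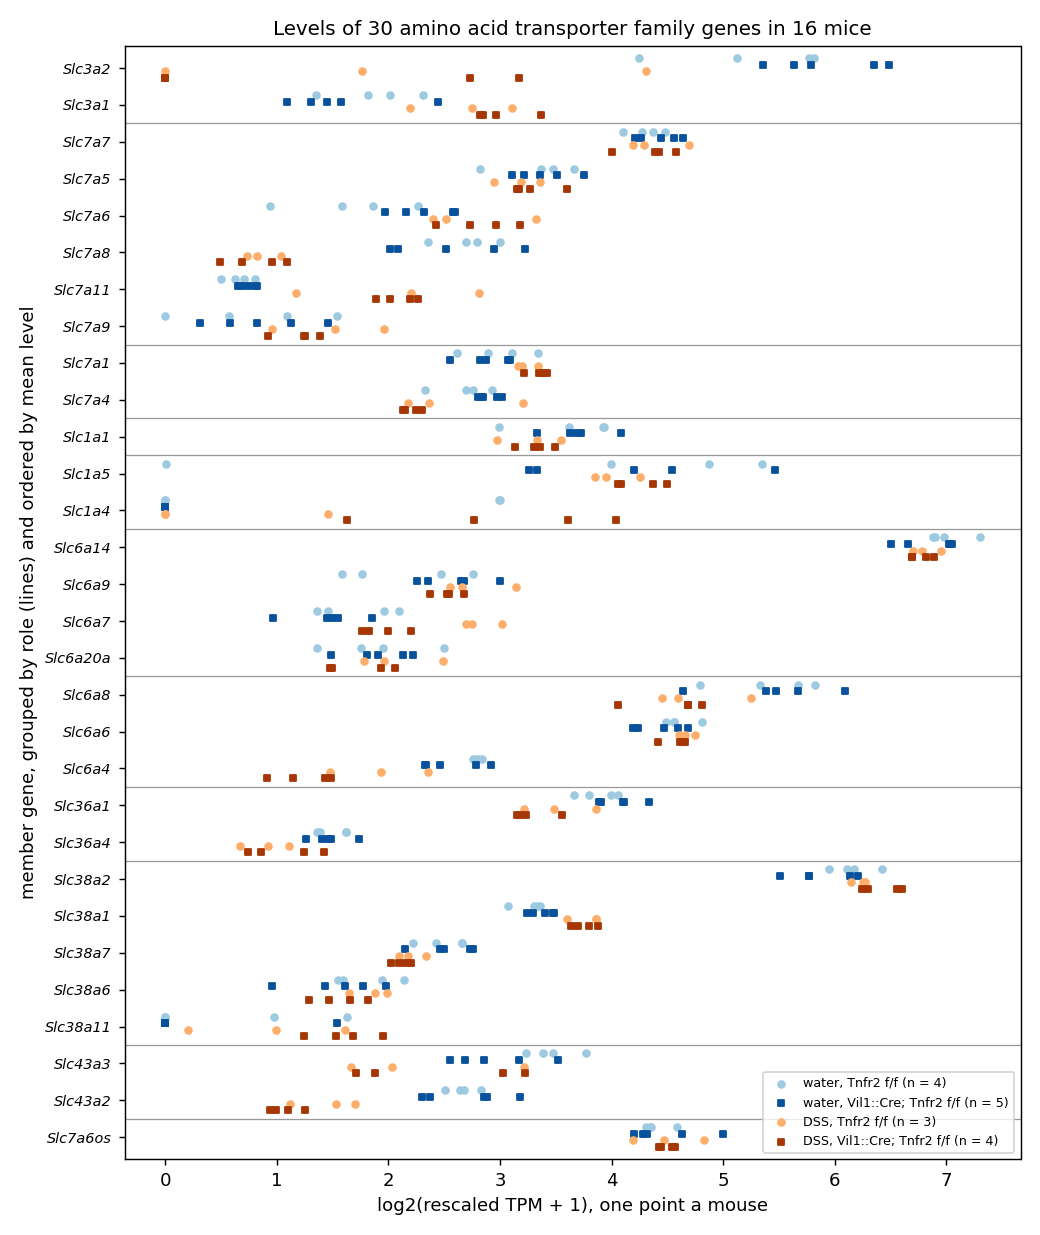
Levels of the 30 members compared, on the log2(rescaled TPM + 1) scale, with 1 point for each mouse, blue for water and orange for DSS, circles for f/f mice and squares for Cre mice. Horizontal lines separate the roles. *Slc6a14* stands highest in every group, and *Slc3a2*, *Slc1a4* and *Slc1a5* spread most between mice of a group.

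How well a member could be measured differed, because only principal transcripts are listed and kallisto divides reads between the isoforms of a gene. The share of a gene's 31-base windows that occur in its listed transcripts and in none of its other annotated transcripts was 100% for *Slc6a14* and *Slc3a1*, 76.1% for *Slc7a11*, 72.5% for *Slc43a2* and 70.2% for *Slc7a8*. It was 6.93% for *Slc3a2*, where 1 of 9 annotated transcripts is listed and the windows of its own all lie within its first 154 of 1819 bases. The share was 1.39% for *Slc1a4*, 1.02% for *Slc1a5*, 0.658% for *Slc6a8* and 0% for *Slc38a11*. The 7 members under 10% had a median SD within groups of 0.65 on the log2 scale (0.24 to 1.45), and the other 23 members had a median of 0.28 (0.13 to 0.60). Read assignment between listed and unlisted isoforms was not tested, and values of *Slc3a2*, *Slc1a4*, *Slc1a5*, *Slc6a8* and *Slc38a11* are given for each mouse. Values near 0 also occurred outside the families. Of 1126 genes with a median of at least 50 rescaled TPM, 43 (3.82%) were listed below 0.001 in at least 1 mouse.

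**Figure D2:**
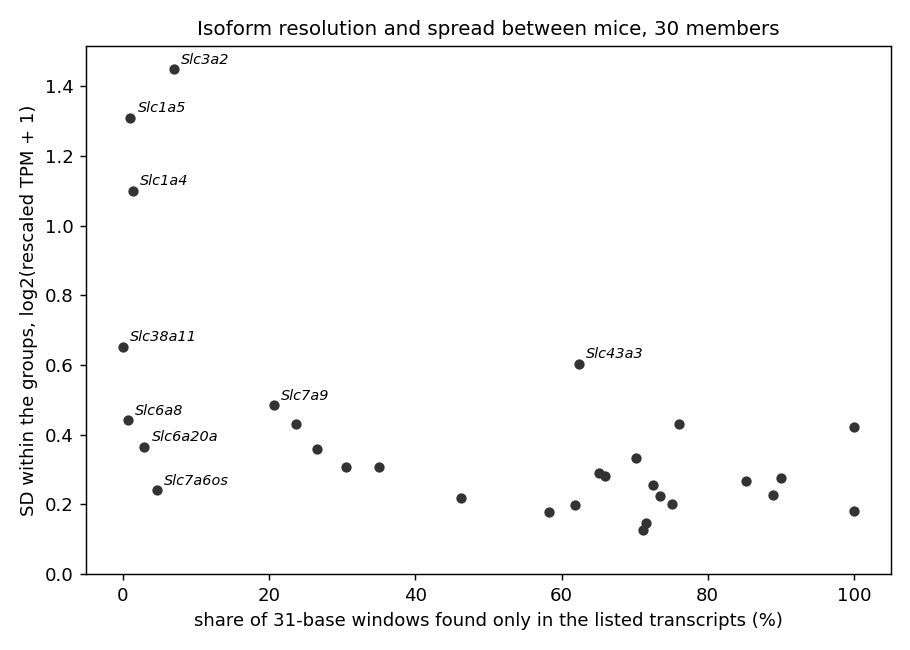
Spread between mice against isoform resolution for the 30 members compared. The horizontal axis gives the share of 31-base windows found only in the listed transcripts (percent), and the vertical axis the SD within the 4 groups, pooled, of log2(rescaled TPM + 1). *Slc3a2*, *Slc1a5* and *Slc1a4* lie highest and have shares of 6.93% or less, and *Slc43a3* is the highest of the members over 10%.

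The first question was which transporters differed between DSS-treated and water-treated epithelium. A member was called separated where every DSS-treated mouse lay on the same side of every water-treated mouse of its genotype and the means of log2(rescaled TPM + 1) differed by at least 1. *Slc7a11* was separated higher in both genotypes, and *Slc7a8* and *Slc43a2* were separated lower in both. Among all 11210 genes tested, 0.847% were separated higher in both genotypes and 5.31% lower in both, against 1 (3.33%) and 2 (6.67%) of the 30 members. Since *Slc7a11* and *Slc7a8* each averaged under 1 rescaled TPM in 1 of the treatments and passed the filter through the other, they had to differ, and nothing is read from these counts. In the f/f mice, 3 members were separated higher (10%, background 1.65%), namely *Slc6a7*, *Slc7a6* and *Slc7a11*, and 3 lower (background 8.36%), namely *Slc7a8*, *Slc43a2* and *Slc43a3*. In the Cre mice, 3 were separated higher (background 3.7%), namely *Slc1a4*, *Slc3a1* and *Slc7a11*, and 4 lower (13.3%, background 8.99%), namely *Slc3a2*, *Slc6a4*, *Slc7a8* and *Slc43a2*. Among these, *Slc1a4* and *Slc3a2* are poorly resolved. The median difference of the 30 members was 0.05 in the f/f mice and -0.07 in the Cre mice, close to that of all genes. In both genotypes, under 4 scalings and by rank within a mouse, 21 of the 30 members differed in 1 direction, 13 of them higher after DSS and 8 lower (70%, where 62.1% of all genes tested did so). Among the 21 are *Slc7a8*, *Slc7a9*, *Slc7a11* and *Slc38a11*, which each averaged under 1 rescaled TPM in 1 treatment and passed the filter through the other. Nothing is read from this count either, and the counts for each genotype also include *Slc7a8* and *Slc7a11*.

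**Figure D3:**
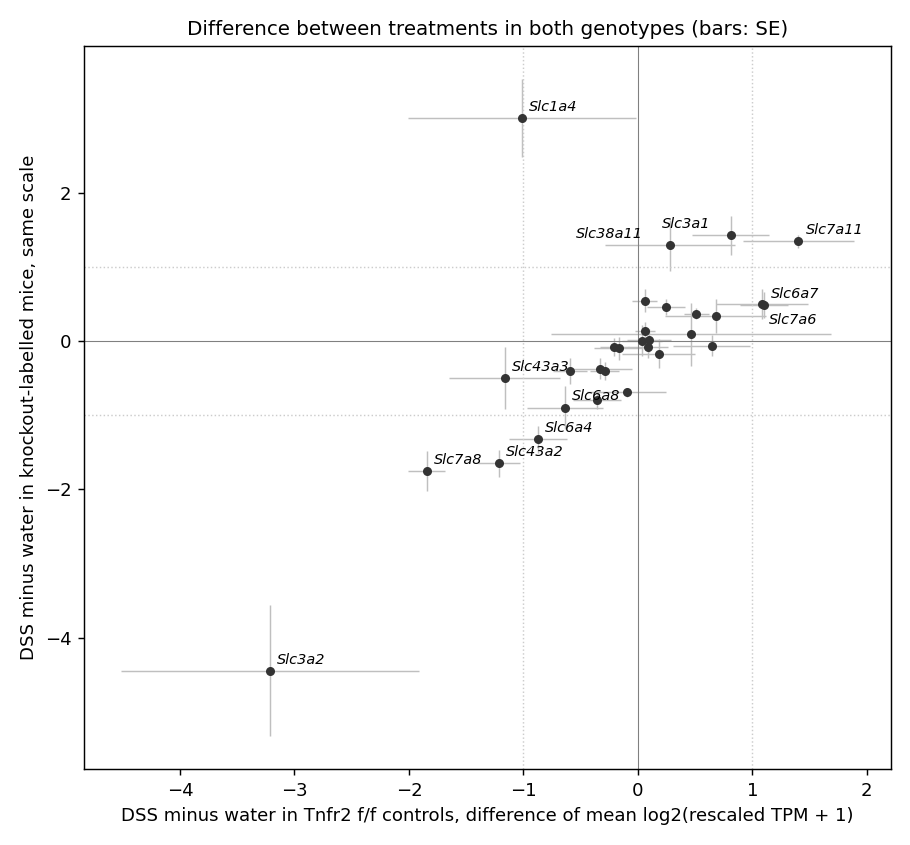
Difference between DSS and water for the 30 members, as the difference of mean log2(rescaled TPM + 1), in the f/f mice (horizontal) and in the Cre mice (vertical), with bars for the SE and dotted lines at a difference of 1 in either direction. *Slc7a11* lies at 1.40 and 1.35, *Slc7a8* at -1.85 and -1.75, and *Slc1a4* is the member whose differences point in opposite directions at over 1 in both genotypes, with values near 0 in most mice.

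*Slc7a11* encodes the exchanger that imports cystine for glutathione synthesis against export of glutamate (chr3:49892526-50443614, minus strand, GRCm38, 12 exons in its listed transcript). It was low in every water-treated mouse, at 0.628, 0.543, 0.415 and 0.750 rescaled TPM in the f/f mice and at 0.679, 0.569, 0.616, 0.767 and 0.755 in the Cre mice. After DSS it reached 6.04, 3.59 and 1.25 in the f/f mice and 3.03, 2.71, 3.57 and 3.81 in the Cre mice. All 7 DSS-treated mice lay above all 9 water-treated mice, and since no water-treated mouse reached 1 rescaled TPM, the gene passed the filter on low values only through the DSS-treated mice and had to differ. Group means were 0.584 ± 0.141 (SD, n = 4) and 0.677 ± 0.0859 (n = 5) in water, and 3.63 ± 2.39 (n = 3) and 3.28 ± 0.501 (n = 4) after DSS, 6.21 and 4.85 times as high. On the log2 scale the differences were 1.40 (SE 0.48) and 1.35 (SE 0.09), which understate the change of so low a gene. Its rank within a mouse moved from a median percentile of 5.65 to 32.97 in the f/f mice and from 6.46 to 29.97 in the Cre mice. The lowest DSS-treated mouse, f/f mouse 3, was also the one with the most goblet cell transcripts after DSS, with a summed marker level of 8136 rescaled TPM against 2215 to 3476 in the other 6. Without it the difference in the f/f mice was 1.85.

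*Slc7a8* (chr14:54722209-54781946, minus strand) is a light chain that exchanges large and small neutral amino acids at the basolateral membrane. In water it had 5.49, 7.00, 5.92 and 4.10 rescaled TPM in the f/f mice and 3.24, 3.05, 4.71, 8.33 and 6.72 in the Cre mice. After DSS it had 1.06, 0.764 and 0.667 in the f/f mice and 0.935, 1.14, 0.407 and 0.610 in the Cre mice. The gene averaged under 1 rescaled TPM after DSS and passed the filter on low values through the water-treated mice, so that it had to differ. The highest DSS-treated mouse lay below the lowest water-treated mouse, and the group means after DSS were 0.147 (f/f) and 0.148 (Cre) of those in water. The differences were -1.85 (SE 0.16) and -1.75 (SE 0.27) on the log2 scale. The sums of the pan-leukocyte and the 6 macrophage markers were lower in the same mice, without overlap. The surface colonocyte sum was lower too, at 624.9 to 1384 rescaled TPM against 1752 to 2721 in water, and so was the goblet cell sum in all DSS-treated mice but f/f mouse 3. The part of these in the difference was not tested.

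*Slc43a2* (chr11:75531694-75577575, plus strand), a uniporter of branched-chain amino acids, phenylalanine and methionine, was lower as well. Its levels were 5.23, 5.39, 4.68 and 6.10 rescaled TPM in the f/f mice on water and 6.23, 3.93, 4.18, 8.05 and 6.40 in the Cre mice on water. After DSS they were 2.25, 1.17 and 1.89 in the f/f mice and 1.14, 1.38, 0.917 and 0.995 in the Cre mice. The groups did not overlap, with differences of -1.21 (SE 0.19) and -1.65 (SE 0.18) on the log2 scale. In the f/f mice the difference was -0.95 without rescaling, short of 1. The part of the same marker sums was not tested here either.

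*Slc43a3*, which is known as a carrier of purine bases rather than of amino acids, split the DSS-treated mice. It had 10.1, 8.40, 12.7 and 9.46 rescaled TPM in the f/f mice on water, and 8.03, 6.24, 5.43, 10.5 and 4.87 in the Cre mice on water. After DSS it had 8.29, 2.17 and 3.09 in the f/f mice and 2.28, 7.14, 8.34 and 2.69 in the Cre mice. The 3 high values belonged to f/f mouse 1 and to Cre mice 2 and 3, in which the summed level of 6 fibroblast markers was 344, 368 and 430 rescaled TPM, against 89.8 to 144 in the other 4. None of the 6 fibroblast markers was listed at 0 in every mouse of a group. Their part in the split was not tested.

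**Figure D4:**
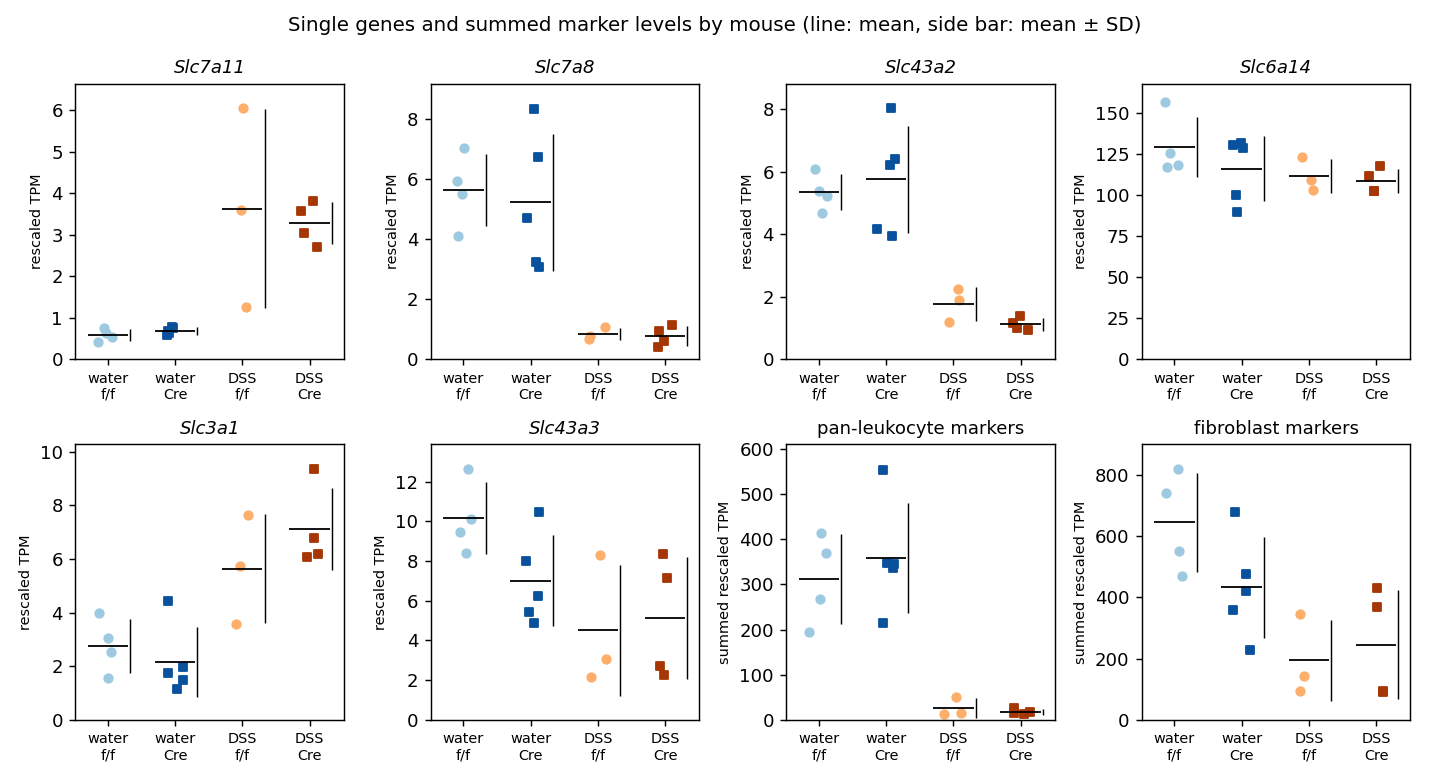
Rescaled TPM by mouse of 6 members, and the summed rescaled TPM of the pan-leukocyte and fibroblast markers, in the 4 groups (f/f, controls, and Cre, labelled knockout). Horizontal lines give the mean and side bars the mean ± SD, and every axis starts at 0. *Slc7a11* is higher after DSS in both genotypes. *Slc3a1* is higher too, without overlap in the Cre mice and, at this scaling, with overlap in the f/f mice. *Slc7a8* and *Slc43a2* are lower together with the pan-leukocyte markers, and *Slc6a14* overlaps between all groups.

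Of the heavy chains, *Slc3a1* partners the cystine and cationic exchanger *Slc7a9*, and *Slc3a2* partners most other light chains. *Slc3a1* had 3.97, 1.55, 2.52 and 3.03 rescaled TPM in the f/f mice on water and 1.48, 1.13, 1.97, 1.73 and 4.45 in the Cre mice on water. After DSS it had 7.63, 5.72 and 3.57 in the f/f mice, which overlapped water, and 6.19, 6.08, 9.35 and 6.79 in the Cre mice, which did not. The differences were 0.81 (SE 0.33) and 1.43 (SE 0.26) on the log2 scale. In the f/f mice *Slc3a1* was also separated higher without rescaling, with females only and without f/f mouse 3 given DSS. Its partner *Slc7a9* was low throughout, with no mouse above 2.89 rescaled TPM, and its groups overlapped.

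*Slc3a2* (chr19:8706882-8723369, minus strand) was listed at 55.2, 33.8, 17.95 and 53.5 rescaled TPM in the f/f mice on water and at 54.1, 81.0, 48.6, 88.9 and 40.0 in the Cre mice on water. After DSS it was listed at 0 in f/f mouse 1 and at 2.39 and 18.8 in the others, values under 0.001 being written 0. The Cre mice given DSS were listed at 8.00, 0, 0 and 5.63. The 3 mice listed at 0 were the same 3 that had the high *Slc43a3* values and fibroblast sums. These values describe the listed transcript, of which 6.93% is its own, and say little of the gene as a whole.

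The other light chains moved less. *Slc7a5*, the partner of *Slc3a2* for large neutral amino acids, had group means of 9.30 ± 2.36 (SD, n = 4) and 9.62 ± 1.93 (n = 5) in water and 8.03 ± 1.29 (n = 3) and 8.90 ± 1.51 (n = 4) after DSS, and its groups overlapped. It overlaps a predicted gene on the opposite strand, as *Slc3a1* overlaps *Prepl* and *Slc1a1* overlaps *4430402I18Rik*, and whether the quantification used strand is not given in the sources used here. *Slc7a7* had 16.2, 21.3, 18.3 and 19.7 rescaled TPM in the f/f mice on water and 22.6, 18.3, 20.7, 17.5 and 23.9 in the Cre mice on water. After DSS it had 18.6, 17.3 and 24.9 in the f/f mice and 22.9, 20.5, 15.0 and 19.95 in the Cre mice, with full overlap. *Slc7a6*, an exchanger of the same kind as *Slc7a7*, had 3.81, 0.912, 1.99 and 2.63 in the f/f mice on water against 4.27, 8.98 and 4.71 after DSS, a difference of 1.08 (SE 0.40). In the Cre mice it had 2.92, 4.96, 3.46, 5.06 and 3.99 in water and 4.38, 5.65, 8.09 and 6.81 after DSS, which overlapped. Of the cationic branch, *Slc7a1*, the main arginine and lysine carrier of many cells, had 7.60, 9.11, 5.11 and 6.42 rescaled TPM in the f/f mice on water and 6.08, 6.34, 4.87, 7.51 and 7.42 in the Cre mice on water. It had 7.94, 8.20 and 9.10 in the f/f mice given DSS and 9.71, 8.32, 9.19 and 9.44 in the Cre mice given DSS, above all water-treated mice of that genotype by 0.46 (SE 0.11).

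In the SLC6 family, *Slc6a7*, a proline carrier known from neurons, had 1.57, 2.89, 3.28 and 1.74 rescaled TPM in the f/f mice on water and 5.49, 5.71 and 7.10 in the f/f mice given DSS. The Cre mice had 1.93, 1.81, 0.950, 2.61 and 1.74 in water and 2.99, 3.61, 2.55 and 2.40 after DSS, which overlapped. The differences were 1.10 (SE 0.21) and 0.49 (SE 0.17), and their difference was not tested. *Slc6a4*, the serotonin carrier, was lower after DSS without overlap in both genotypes, with differences of -0.88 (SE 0.25) and -1.32 (SE 0.18), from group means of 5.94 ± 0.171 (SD, n = 4) and 5.01 ± 1.15 (n = 5) to 2.90 ± 1.17 (n = 3) and 1.40 ± 0.427 (n = 4) rescaled TPM. The taurine carrier *Slc6a6* had group means of 20.9 to 24.4 rescaled TPM and overlapped between treatments. *Slc6a8* had 50.1, 26.7, 39.3 and 55.5 rescaled TPM in the f/f mice on water and 67.1, 43.6, 40.9, 23.9 and 50.1 in the Cre mice on water. It had 21.0, 23.2 and 37.0 in the f/f mice given DSS and 24.7, 15.7, 27.02 and 24.7 in the Cre mice given DSS, and overlapped between treatments. The imino acid carrier *Slc6a20a* shares 29.6% of its windows with other genes, chiefly its near copy *Slc6a20b*, so its level of 1.57 to 4.65 rescaled TPM is uncertain.

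*Slc1a1*, the glutamate and cysteine carrier, had 11.3, 14.2, 14.2 and 6.93 rescaled TPM in the f/f mice on water and 16.01, 11.4, 12.2, 9.06 and 11.9 in the Cre mice on water, against 6.85, 9.04 and 10.7 and 10.2, 7.77, 8.89 and 9.25 after DSS. The groups overlapped. *Slc1a5*, the main glutamine importer of many dividing cells, was listed at 39.7, 0.00231, 15.0 and 28.3 in the f/f mice on water and at 43.3, 17.4, 22.3, 8.60 and 9.04 in the Cre mice on water. After DSS its mice lay close together, at 13.4, 18.2 and 14.5 and at 19.7, 21.6, 15.6 and 15.98. *Slc1a4*, which exchanges alanine, serine and cysteine, was listed at 7.02, 6.97, 0 and 0 in the f/f mice on water, at 0 in all 5 Cre mice on water, at 0, 0 and 1.75 in the f/f mice given DSS and at 5.81, 11.2, 2.09 and 15.4 in the Cre mice given DSS. Both of these genes are poorly resolved, and no fold between treatments is given.

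Proton-coupled *Slc36a1* had 12.9, 11.6, 15.6 and 15.0 rescaled TPM in the f/f mice on water and 19.2, 16.3, 13.8, 16.2 and 14.02 in the Cre mice on water. After DSS it had 10.2, 8.30 and 13.6 in the f/f mice, which overlapped water, and 10.8, 8.06, 7.89 and 8.40 in the Cre mice, which did not, at a difference of -0.79 (SE 0.12). Of the SLC38 members, *Slc38a1*, a glutamine carrier, was higher after DSS without overlap in both genotypes, by 0.51 (SE 0.11) and 0.37 (SE 0.07), from group means of 8.65 ± 0.843 (SD, n = 4) and 9.44 ± 0.788 (n = 5) to 12.7 ± 1.38 (n = 3) and 12.5 ± 1.00 (n = 4) rescaled TPM. *Slc38a2* differed by 0.06 (SE 0.11) and 0.55 (SE 0.16). *Slc38a11* was near the limit of measurement, at 2.10, 0.967, 0 and 0 in the f/f mice on water, at 0, 1.91, 0, 0 and 0 in the Cre mice on water, at 0.149, 2.05 and 0.992 in the f/f mice given DSS and at 1.89, 1.36, 2.21 and 2.86 in the Cre mice given DSS. None of the windows of *Slc38a11* is particular to its listed transcript. At any size of difference, 4 members were higher and 5 lower without overlap in the f/f mice (background 10.2% and 14.3%), and 6 were higher and 6 lower in the Cre mice (background 17.3% and 18.1%). *Slc7a11* and *Slc7a8*, which had to differ, are again among them.

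Other genes that handle amino acids were followed by lists. Of 16 tested carriers outside the families, none was separated higher and 2 were separated lower in both genotypes, with a list median of -0.33 and -0.30. They were *Slc15a1*, the intestinal peptide carrier, which went from 16.4 ± 7.90 (SD, n = 4) and 14.6 ± 3.71 (n = 5) rescaled TPM in water to 3.04 ± 1.26 (n = 3) and 2.47 ± 0.988 (n = 4) after DSS, and the lysosomal peptide carrier *Slc15a3*, with differences of -2.01 (SE 0.85) and -2.25 (SE 0.37). The lysosomal cystine exporter *Ctns* differed by -0.92 (SE 0.15) and -0.93 (SE 0.12). Of 23 tested genes of ATF4 and the amino acid response, none was separated in both genotypes, and the list medians were 0.04 and -0.07. By the mean of both genotypes, its genes with the largest differences were lower after DSS, *Pycr1* (-1.15, SE 0.70, and -1.73, SE 0.21), *Ddit3* (-1.31, SE 0.62, and -1.38, SE 0.31) and *Atf5* (-0.96, SE 0.34, and -0.87, SE 0.18). In the f/f mice alone, the largest difference of the list was that of *Psat1*, a serine synthesis enzyme, at 1.39 (SE 0.62), against 0.28 (SE 0.35) in the Cre mice. Its f/f mice overlapped, at 0 to 3.49 rescaled TPM in water and 2.83 to 9.18 after DSS, and the difference between genotypes was not tested.

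Of 25 tested genes by which mTORC1 senses amino acids, none was separated in both genotypes (medians -0.07 and -0.08). The arginine sensor *Castor1* differed by -0.84 (SE 0.34) and -1.04 (SE 0.19), *Flcn* by -0.89 (SE 0.21) and -0.92 (SE 0.20), and *Sesn3* by 0.65 (SE 0.20) and 0.93 (SE 0.12). The 18 tested cytosolic aminoacyl-tRNA synthetases had medians of 0.28 and 0.15, with 15 and 11 of them higher after DSS and none separated in both genotypes. By the same mean, the largest differences were in *Wars* (0.99, SE 1.04, and 1.40, SE 1.08), *Farsb* (1.65, SE 1.11, and 0.27, SE 0.24) and *Rars* (0.55, SE 0.19, and 0.65, SE 0.10). The lowest *Wars* value was 0 in both water-treated groups and in the Cre mice given DSS. *Farsb* ranged from 0.00103 to 20.4 rescaled TPM in the f/f mice on water. Among 19 tested enzymes of glutamine, arginine and glutathione, *Bckdha* of branched-chain amino acid breakdown was the only gene separated in both genotypes, at -1.02 (SE 0.42) and -1.26 (SE 0.12). The arginases differed in the other direction, *Arg1* by 2.07 (SE 1.09) and 0.97 (SE 0.47) and *Arg2* by 1.41 (SE 0.77) and 1.40 (SE 0.25). *Arg1* ranged from 1.63 to 27.5 rescaled TPM in the f/f mice given DSS. The treatments overlapped for *Arg1* in the Cre mice and for *Arg2* in the f/f mice. Over all genes tested, 595 were separated lower in both genotypes and 95 higher.

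The second question was whether loss of TNFR2 in the epithelium changed the transporters. The comparison was made by limma inside each treatment, on log2(TPM + 1) of the deposited values of genes averaging 1 TPM or more there, which left *Slc7a8* untested after DSS and *Slc7a11* untested in water. After DSS, 0 of 30 members tested passed an adjusted p of 0.05 (background 0.00918%, 1 of 10899 genes), and 3 had an unadjusted p under 0.05 (10%, background 2.65%). In the water-treated mice, 0 of 27 members passed (background 0.00905%, 1 of 11046 genes), and 2 had an unadjusted p under 0.05 (7.41%, background 5.28%). In TPM as deposited, non-overlapping genotypes were found for 3 of 30 members after DSS (background 3.68%), namely *Slc1a4*, *Slc6a7* and *Slc38a2*. In water they were found for 0 of 27 (background 1.55%). In rescaled TPM *Slc38a2* overlapped after DSS, at 69.9 to 76.4 in the f/f mice and 74.8 to 96.2 in the Cre mice. With 3 mice against 4 the smallest two-sided exact permutation p is 0.0571, so that no single gene could pass 0.05 by that test, and with 4 against 5 it is 0.0159.

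*Slc6a7* was the best resolved of these. After DSS the f/f mice had 6.31, 6.52 and 8.83 TPM as deposited and the Cre mice had 3.598, 4.30, 2.99 and 2.83, all below every f/f mouse. The log2 fold change was -0.89 (SE 0.19, limma adjusted p = 1.00), and the exact permutation p was 0.0571. Within the cages, Cre minus f/f was -1.10 in the cage with 1 mouse of each genotype and -0.78 in the cage with 2 f/f mice and 3 Cre mice. With each mouse left out in turn it lay between -0.98 and -0.76. Since every Cre mouse lay below every f/f mouse, the direction within the cages and with a mouse left out was fixed, and it adds no support. In water *Slc6a7* differed by -0.24 (SE 0.23, limma adjusted p = 0.867), and the difference between treatments was not tested.

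*Slc1a4* had the largest fold change after DSS, 2.67 (SE 0.66, limma adjusted p = 1.00), and -1.45 (SE 0.66, adjusted p = 0.865) in water, where all Cre mice were listed at 0. These fits rest on values at 0 in a gene with 1.39% of windows of its own. *Slc38a11* followed after DSS with 0.73 (SE 0.38, limma adjusted p = 1.00), and *Slc6a4* had -0.71 (SE 0.30, adjusted p = 1.00). *Slc38a2*, at 86.5, 87.2 and 86.8 TPM as deposited in the f/f mice given DSS, was at 116, 89.0, 109 and 91.7 in the Cre mice given DSS. Its log2 fold change was 0.21 (SE 0.12, limma adjusted p = 1.00, exact permutation p = 0.0571), and in rescaled TPM the genotypes overlapped. In the water-treated mice the same difference was -0.28 (SE 0.16, limma adjusted p = 0.865).

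In water, *Slc7a6* had 3.54, 0.830, 1.81 and 2.39 TPM in the f/f mice and 2.73, 4.54, 3.26, 4.55 and 3.65 in the Cre mice, with overlap. Its log2 fold change was 0.65 (SE 0.26, limma adjusted p = 0.865, exact permutation p = 0.0476), and within the male and the female cage it was 0.35 and 0.94. *Slc3a2* differed by 0.70 (SE 0.36, limma adjusted p = 0.865) from values of 51.3, 30.8, 16.3 and 48.6 TPM in the f/f mice and 50.6, 74.1, 45.8, 79.9 and 36.6 in the Cre mice. *Slc43a3* differed by -0.49 (SE 0.21, limma adjusted p = 0.865). Neither *Slc7a11* (0.05 after DSS, SE 0.36) nor *Slc7a8* (-0.14 in water, SE 0.27) differed between genotypes beyond the spread between mice.

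**Figure D5:**
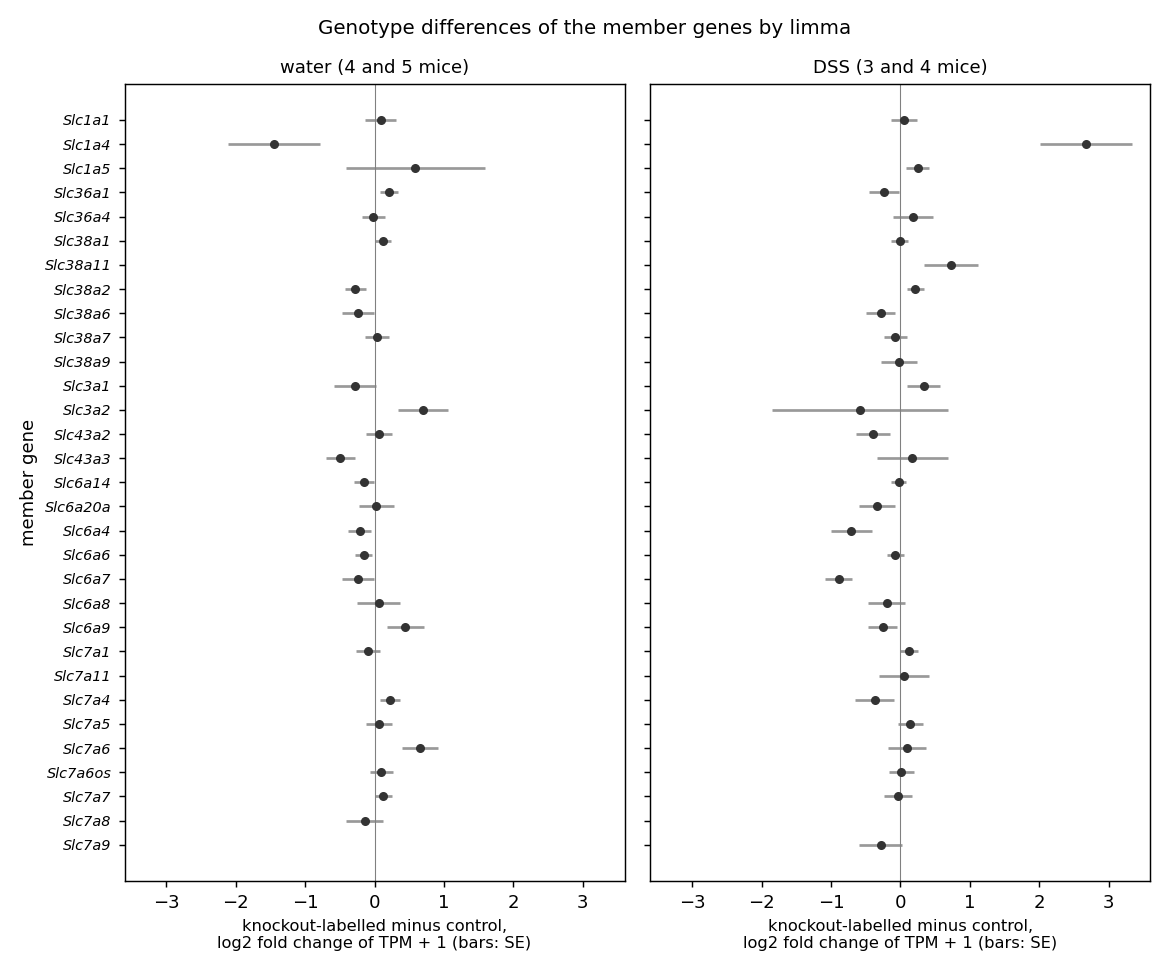
Log2 fold change of TPM + 1, Cre mice minus f/f mice, for each member tested in water (left) and after DSS (right), with bars for the SE from limma. Members absent from a panel were below a mean of 1 TPM in that treatment. *Slc6a7* lies at -0.89 and *Slc1a4* at 2.67 after DSS, and no member passed an adjusted p of 0.05.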

How the data were processed

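Per the labels and the paper's methods, stranded polyA libraries were read as single reads of 75 bases and quantified by kallisto, and the authors tested genotype within a treatment with sleuth. The authors deposited 2 tables, 1 for each treatment, with TPM for principal transcripts only. Further columns of the authors hold their p-values, q-values and ratios and were not used. Both tables held 29373 lines, and 385 duplicated lines were left out. TPM was summed over the 28988 transcripts by gene symbol (92 transcripts for the members). TPM does not give the depth of a library, and precision is set by the number of mice.

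The labels name mm10. All transcripts were found in GENCODE M21 (GRCm38), 96.0% with the same version, and isoform windows and gene positions are from it. The transcript release and strand setting that the authors used are not given in the sources used here. Groups, replicate numbers, cage and sex came from the labels.

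Genotype was tested in each treatment with limma 3.58.1 (R 4.3.3; trend, empirical Bayes) on log2(TPM + 1). Genes averaging 1 TPM or more entered the fit, p-values were adjusted after Benjamini and Hochberg over all of them, and single members were also tested by exact two-sided permutation. The fit was tested on simulated data. Treatments were described without a test after median-of-ratios rescaling. The members and lists were chosen with earlier results of these data known. The named genes are the highest member of each role, members separated in both genotypes, the 3 largest genotype differences in each treatment and, of each pathway list, up to 3 genes with the largest differences, and some other members and *Psat1* were added after their values were seen. Alternatives were other scalings, a pseudocount of 0.1, no filter or a mean of at least 5 TPM, females only, cage as a covariate, a replicate block and leaving out each mouse. Python 3.11.15, numpy 2.4.6, pandas 2.3.3, scipy 1.17.1 and matplotlib 3.10.9 were used.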

Additional observations from a re-analysis of the deposited data

Results flagged for a closer look

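Values of the named members were checked in each group of 4 or 5 mice for a mouse far from the others, by the gap to its nearest neighbour as a share of the group's range. Chance flags about 1 in 20 groups, and 2 of 54 groups stood out. In the Cre mice on water, *Slc38a11* was at 1.91 rescaled TPM in 1 mouse and at 0 in the other 4 (share 1). In the same group *Slc1a4* had a share of 0.767, with all 5 values at or below 1.83e-06 rescaled TPM, so the gap lies among values that are all near 0.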

How the results depend on the processing

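*Slc7a11* (higher), *Slc7a8* and *Slc43a2* (lower) kept their direction in both genotypes under all alternatives in which they were tested (none of them reached a mean of 5 TPM). The number of members separated lower in the f/f mice was 1 without rescaling, 5 with a pseudocount of 0.1 and 1 with a mean of at least 5 TPM, and 2 to 5 with a mouse left out, 5 being without f/f mouse 3 given DSS and 2 without f/f mouse 2 given DSS, and the number separated higher was 0 with a mean of at least 5 TPM. Among members separated in the f/f mice, *Slc6a7* lost the call without f/f mouse 1 on water, *Slc7a6* without f/f mouse 2 on water or f/f mouse 2 given DSS, and *Slc43a3* without f/f mouse 2 given DSS and, by difference or overlap, without rescaling (-0.86), with an equal sum and with quantile normalization. In the Cre mice, 5 were separated higher with an equal sum of listed TPM, and 0 higher and 1 lower with a mean of at least 5 TPM. The members' median was 0.30 (f/f) and 0.25 (Cre) without rescaling and 0.43 with an equal sum in the Cre mice, where that scaling put the median of all genes at 0.48. No member was called between genotypes in any fit. Of all genes, after DSS 0 were called with a pseudocount of 0.1 or no filter and 0 to 3 with a mouse left out, and in water 0 with a pseudocount of 0.1, 4 with no filter, 0 with a mean of at least 5 TPM and 1 to 2 with a mouse left out. *Slc1a5* in water turned to -0.57 without f/f mouse 2 on water (listed at 0.00231), within a range of -0.57 to 1.18. The cause was not tested.

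Same-numbered mice did not deviate together (correlations of -0.08 to 0.09 in water and -0.20 to -0.03 after DSS), so the numbers do not pair them. With the replicate block, 0 genes and 0 members were called by limma in either treatment, with 169 genes after DSS and 623 in water at an unadjusted p under 0.05. Library depth is not known from TPM, and low members such as *Slc7a11* in water are near the limit of measurement.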
